A study of Mus musculus with 2 samples.

Results

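The genes described are 10 mouse genes of cytokine signalling through Janus kinases: the feedback inhibitors Socs1, Socs2, Socs3 and Cish, the transcription factors Stat3, Stat4, Stat5a and Stat6, the kinase Jak2 and the interleukin-6 receptor gene Il6ra. They were taken from the count table by Ensembl identifier and symbol, and all 10 were found among its 48795 gene rows. RNA was sequenced from resident macrophages of the kidneys of wild-type C57BL/6 mice aged 8 weeks, with no treatment named, sorted by flow cytometry into a CD11c+ population (R2a) and a CD11c- population (R2b). Each population is 1 library, made from the pooled RNA of 6 to 8 mice. The spread between animals was therefore not measured, no p-value is given, and every interval below covers counting error only.

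In this pathway a cytokine binds its receptor chains, the attached Janus kinases phosphorylate them, and STAT proteins dock there, are phosphorylated, and move to the nucleus to switch on target genes. Socs and Cish are themselves such targets, and their proteins shut the receptor or kinase down again, which makes their RNA a commonly used readout of recent signalling. In macrophages, STAT3 with SOCS3 is best known downstream of interleukin-6 and interleukin-10, STAT6 downstream of interleukin-4 and interleukin-13, and STAT5 with CISH and SOCS2 downstream of GM-CSF and related cytokines.

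Reads on genes numbered 11811923 in R2a and 23915896 in R2b. Macrophage markers were high in both, with all 12 over 1 CPM (counts relative to the scaled library total) and 0 called different. Log2 ratios, R2a over R2b, were below 0 for 11 of these 12, with a median of -0.16. Adgre1, which encodes F4/80, reached 1521 CPM in R2a against 1779 CPM in R2b. The sort marker transcript Itgax, which encodes CD11c, had 367 CPM in R2a against 48.9 CPM in R2b and so went with the labels. RNA of other cells was present too: the 12 proximal tubule markers summed to 2702 CPM in R2a and 2825 CPM in R2b, and what such cells added to the levels below was not tested. A gene was called when its log2 ratio, R2a over R2b, of CPM plus 0.5 was at least 1 in size, it had at least 1 CPM in the higher library, and the exact 95% interval of its fold excluded 1. Of 15603 genes compared, 1.84% were called lower and 1.93% higher in R2a.

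Among the 10 genes, Socs3 was the one called lower in R2a, and 0 were called higher. Kinase, transcription factor and receptor genes lay close to equal in the libraries. The inhibitors ranged from Socs3, lower in R2a, through Cish, which missed the 2-fold rule, to Socs1, near equality. The median log2 ratio of the 10 genes was -0.05, against -0.01 for all genes compared, and it was 0.02 with total-count scaling. The calls rest on this 1 gene, so they describe Socs3 and not the 10 genes as a set.

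**Figure D1:**
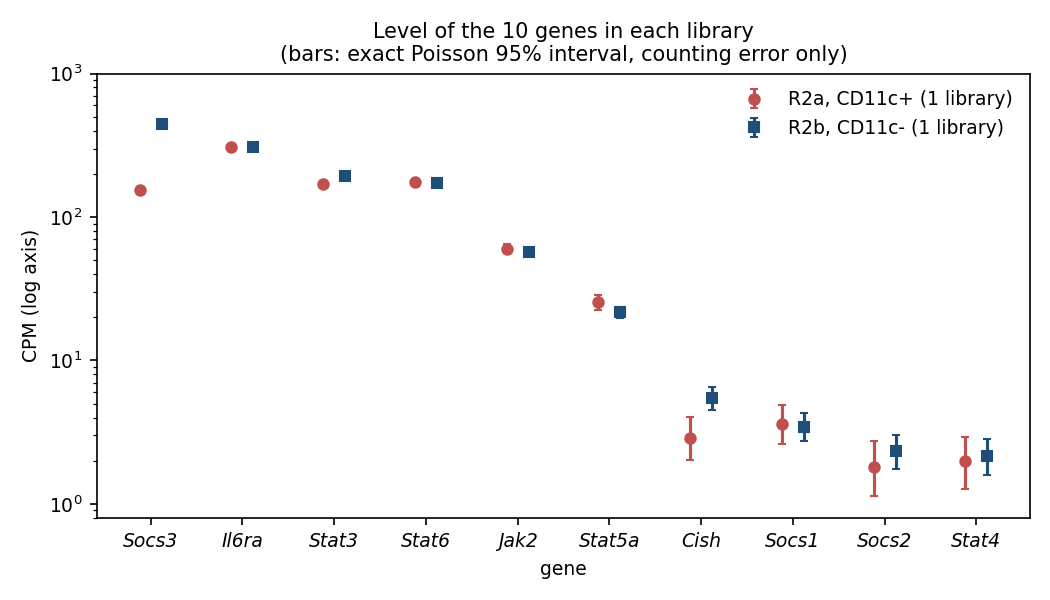
CPM on a log axis (vertical) of the 10 genes (horizontal, ordered by level in R2b) in the R2a library (circles) and the R2b library (squares), with exact Poisson 95% intervals of the counting error. Socs3 lies at 155 CPM in R2a against 448 CPM in R2b, whereas the markers of Il6ra, Stat3, Stat6 and Jak2 lie nearly level.

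Socs3 encodes the inhibitor that binds receptors of the interleukin-6 family and blocks the attached Janus kinases. Its gene (ENSMUSG00000053113.3, GRCm38 chr11:117966079-117970047, minus strand) had 1886 reads in R2a and 10420 in R2b. That is 155 CPM (148 to 163) in R2a and 448 CPM (439 to 456) in R2b. The Poisson intervals of these levels do not overlap. Socs3 was 2.88 times lower in R2a (2.74 to 3.03), a log2 ratio of -1.52, and only 65 of the 15603 genes compared had a lower ratio. RNA of pooled sorted cells does not separate fewer cells of a type from less RNA per cell, here or for any gene below. Socs3 kept its call under every alternative tried except a 4-fold rule.

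Markers of several other cell types differed between the libraries too, and their part in the Socs3 difference and in the target lists below was not tested. Of 10 monocyte markers 9 were compared, 3 were called higher in R2a and 1 lower, and the list summed to 735 CPM in R2a against 412 CPM in R2b. The higher genes were Ccr2, the monocyte chemokine receptor, with 3240 reads in R2a and 692 in R2b, Treml4 with 109 and 32, and Ear2 with 64 and 19. The lower gene was the coagulation factor gene F13a1, with 4 and 787 reads. Of the 9 monocyte markers compared, 5 had ratios below 0, and the median log2 ratio was -0.21. Of 10 dendritic cell markers 9 were compared. The peptidase gene Dpp4 and the chemokine receptor gene Xcr1 were called higher and Siglech lower, and the list summed to 181 CPM in R2a against 131 CPM in R2b. Ratios were below 0 for 5 of these 9 genes, and the median log2 ratio was -0.01. Fibroblast and pericyte markers were at few reads. Of 8 compared 7 had ratios below 0, and the collagen genes Col1a2 and Col3a1 and the proteoglycan gene Dcn were called lower, none of them with an added value of 2 CPM. Their 10 genes summed to 17.9 CPM in R2a against 31.2 CPM in R2b, with Lum at 0 reads in both. In the B cell list 1 of 6 compared was called lower and in the neutrophil list 1 of 2, while 1 of 10 endothelial markers was called higher. The sums were 42.6 and 51.6 CPM for B cells, 61.0 and 64.8 CPM for neutrophils, where Ly6g and Mmp8 had 0 reads in both, and 70.2 and 52.3 CPM for endothelial cells.

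Cish encodes the founding member of the family, an inhibitor induced by STAT5 and known for damping GM-CSF and interleukin-2 signalling. The gene (ENSMUSG00000032578.7, chr9:107296026-107302784, plus strand) had 35 reads in R2a and 127 in R2b, or 2.88 CPM and 5.46 CPM. The R2a level was again below the R2b level, with Poisson intervals of 2.01 to 4.01 CPM and 4.55 to 6.49 CPM that do not overlap. The fold was 1.89 times lower in R2a (1.29 to 2.84) and the log2 ratio -0.82, short of the 2-fold rule. Under a 1.5-fold rule, which called 5.79% of all genes lower and 5.57% higher, Cish was called lower together with Socs3 and 0 of the 10 were called higher. The exons of Cish overlap those of transcripts on the opposite strand over a small part of their length (4.07% for Gm17040 and 7.46% for Gm17041). Whether counting used strand is not stated, so reads of the overlapping transcripts cannot be told apart with certainty. Gm17040 itself had 1 read in R2a and 12 in R2b, and Gm17041 had 0 in both.

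Socs3 and Cish, the inhibitor genes with the lowest ratios, are shown here by their promoter sequence. Among the 10 genes, theirs were the windows that held the spaced palindrome that STAT dimers are known to bind. Any link between the motif and the ratios was not tested. RefSeq promoter windows (GRCm38.p6, 250 bases before to 50 bases after an annotated start) matched 9 of the 10 genes, with 11 windows, and Socs2 is unmatched. The motif TTCNNNGAA, which reads the same on both strands, was found in the windows of 2 genes, Socs3 and Cish, and in 8.3% of 32851 windows of all genes. The motif TTCNNNNGAA, the wider spacing preferred by STAT6, was found in 0 of the 9 genes and in 6.95% of all windows. The capitals below mark TTCNNNGAA, 5′ to 3′ on the strand of the gene. The Socs3 stretch is chr11:117969452-117969616 on the minus strand, the part of the window that lies before any annotated exon of the gene within it. The annotated gene extends further upstream, to position 117970047, so this stretch lies inside the gene span. The Cish stretch is chr9:107296654-107296683 on the plus strand, and its matches begin at the annotated start, inside the 5′ UTR of a longer GENCODE transcript.
Socs3: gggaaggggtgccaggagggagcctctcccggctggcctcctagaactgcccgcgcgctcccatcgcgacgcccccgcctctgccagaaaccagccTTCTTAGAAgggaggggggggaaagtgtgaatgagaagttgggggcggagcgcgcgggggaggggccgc
Cish: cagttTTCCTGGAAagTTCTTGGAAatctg
The Socs3 match lies at chr11:117969512-117969520, positions -154 to -146 from the RefSeq start, and overlaps no annotated exon. The Cish matches lie at chr9:107296659-107296667 and chr9:107296670-107296678 and do not overlap each other. A match describes these letters only. Binding of a STAT protein was not measured, and no other motif was searched.

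Socs1 encodes the inhibitor that blocks Janus kinases directly and is best known for restraining interferon-gamma signalling. Its gene (ENSMUSG00000038037.4, chr16:10782240-10785536, minus strand) had 44 reads in R2a and 80 in R2b, or 3.62 CPM and 3.44 CPM. The levels overlapped within counting error, with a fold of 1.05 (0.713 to 1.54) and a log2 ratio of 0.07. Socs2 encodes the inhibitor of growth hormone and STAT5 signalling. Its gene (ENSMUSG00000020027.18, chr10:95385362-95417180, minus strand) had 22 reads in R2a and 54 in R2b, or 1.81 CPM and 2.32 CPM. This pair overlapped as well, with a fold of 0.781 (0.453 to 1.30) and a log2 ratio of -0.29. The lower bound for Socs2 reaches below 0.5, so at this depth a 2-fold difference could not be told from equality.

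The remaining SOCS genes, which were not among the 10, gave 0 calls of 4. Their proteins are less studied in cytokine signalling, with SOCS4 and SOCS5 best known for acting on the epidermal growth factor receptor. The log2 ratios were -0.16 for Socs4, 0.11 for Socs5, 0.02 for Socs6 and 0.27 for Socs7. Levels between genes are compared as TPM, in which reads are divided by the merged exon length of the gene, so that genes with long or retained-intron models such as Cish and Socs2 come out low. On that scale Socs3 was the most abundant SOCS gene in both libraries, at 136 TPM in R2a and 384 TPM in R2b. Socs4 followed at 24.5 TPM and 26.9 TPM. Socs3 made up 69.4% of the summed TPM of the 8 family genes in R2a and 86.6% in R2b. The sum itself was 196 TPM in R2a and 443 TPM in R2b. The rank of each gene within the family was the same in both libraries.

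**Figure D2:**
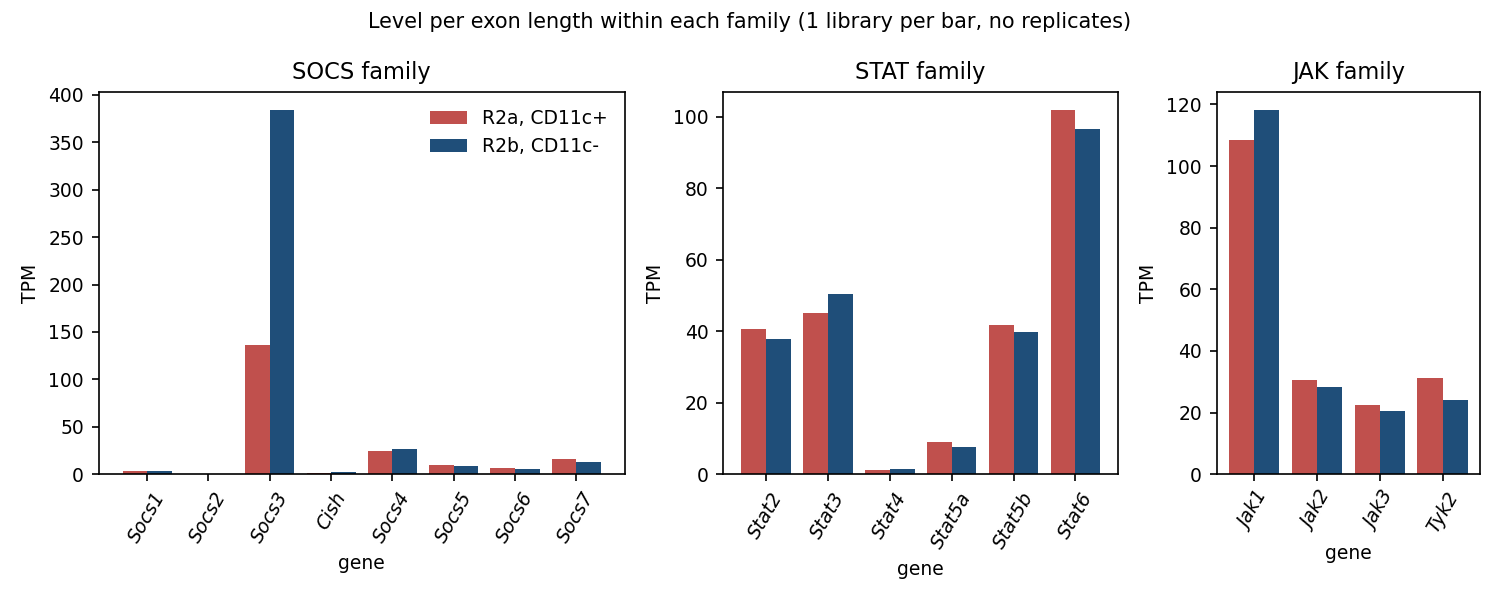
TPM (vertical, linear from 0) of the 8 SOCS, 6 STAT and 4 JAK genes in the R2a and R2b libraries, 1 library per bar and no replicates. Socs3 stands above the rest of its family at 136 TPM in R2a and 384 TPM in R2b, whereas the paired bars of the STAT and JAK genes are of similar height.

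Stat3 encodes the transcription factor activated through interleukin-6 and interleukin-10 receptors and is the main known inducer of Socs3. Its gene (ENSMUSG00000004040.16, chr11:100885098-100939540, minus strand) had 2058 reads in R2a and 4510 in R2b. This is 170 CPM and 194 CPM, a fold of 0.875 (0.830 to 0.922) and a log2 ratio of -0.19. The interval excludes equality, but the difference is far below 2-fold, and the lower quartile of all genes compared was -0.20. Stat6 encodes the factor of interleukin-4 and interleukin-13 signalling. Its gene (ENSMUSG00000002147.18, chr10:127642986-127660957, plus strand) had 2146 reads in R2a and 3988 in R2b, or 177 CPM and 171 CPM. The fold was 1.03 (0.978 to 1.09), so the libraries were equal within counting error.

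Stat5a encodes a factor activated by GM-CSF, interleukin-2 and growth hormone. Its gene (ENSMUSG00000004043.14, chr11:100859351-100885169, plus strand) lies next to Stat3 and had 308 reads in R2a and 507 in R2b, or 25.4 CPM and 21.8 CPM. It had the highest ratio of the 10 genes, a fold of 1.16 (1.01 to 1.34) and a log2 ratio of 0.22, well inside the 2-fold rule. Of the 75-base stretches of its transcripts, 5.12% also occur in its close paralog Stat5b, and reads there may be missing from either count. Stat5b itself had a log2 ratio of 0.03. Stat4 encodes the factor of interleukin-12 signalling, best known from T and NK cells. Its gene (ENSMUSG00000062939.11, chr1:51987148-52107189, plus strand) had 24 reads in R2a and 50 in R2b, or 1.98 CPM and 2.15 CPM. The fold of 0.920 (0.541 to 1.53) was equal within a wide counting error. A readthrough transcript, Gm28177, covers 26.7% of the Stat4 exon length, so its count may be incomplete.

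Markers of T and NK cells were read in both libraries, at few reads apart from Cd4. The 14 markers summed to 128 CPM in R2a and 161 CPM in R2b, of which Cd4, a gene that mouse macrophages can also express, took most. The other 13 summed to 4.53 CPM and 6.88 CPM, or 55 and 160 reads in all. No single gene of these 13 had more than 13 reads in R2a or 34 in R2b, against 24 and 50 for Stat4. Cd3e, a chain of the T cell receptor complex, was called lower, with 4 reads in R2a against 34 in R2b. The T cell receptor gene Trac had 13 and 21 reads, or 1.07 CPM in R2a and 0.902 CPM in R2b, and was not called. Nkg7 had 3 and 6 reads, or 0.247 CPM and 0.258 CPM, and the NK cell factor Eomes had 0 and 2 reads. What share of the Stat4 reads came from such cells was not tested.

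The 6 STAT genes described here were nearly equal in the libraries, with a summed TPM of 239.8 in R2a and 233.6 in R2b. Stat6 was the most abundant in both, at 102 TPM and 96.5 TPM, and made up 42.5% and 41.3% of the sum. Stat3 came next at 45.2 TPM in R2a and 50.4 TPM in R2b. Stat4 was the least abundant, at 1.30 TPM and 1.38 TPM. Stat2, a factor of type I interferon signalling, had a log2 ratio of 0.07.

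Jak2 encodes the kinase used by the receptors for GM-CSF, interferon-gamma and growth hormone. Its gene (ENSMUSG00000024789.12, chr19:29251828-29313080, plus strand) had 732 reads in R2a and 1337 in R2b, or 60.3 CPM and 57.5 CPM. The fold was 1.05 (0.958 to 1.15), equal within counting error. Of the other kinase genes, Jak1 had a log2 ratio of -0.16, Jak3, the partner of the common gamma chain, 0.11, and Tyk2, a kinase of interferon and interleukin-12 receptors, 0.34. The fold of Tyk2 was 1.27 (1.17 to 1.38), the largest upward difference among the SOCS, STAT and JAK genes described here, and it was not called. In TPM, Jak1 led the kinases at 108 in R2a and 118 in R2b. Jak2 ranked just below Tyk2 in R2a, at 30.4 and 31.4 TPM, and above it in R2b, at 28.3 and 24.1 TPM.

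Il6ra encodes the chain that binds interleukin-6 before the shared signalling chain gp130 is engaged. Its gene (ENSMUSG00000027947.11, chr3:89864059-89913196, minus strand) had 3727 reads in R2a and 7182 in R2b, or 307 CPM (297 to 317) and 309 CPM (302 to 316). This was the closest match of the 10 genes, with a fold of 0.995 (0.956 to 1.04). Its log2 ratio of -0.01 turned to 0.07 with total-count scaling. The other 9 genes kept the sign of their ratio under the scalings tried. Il6st, which encodes gp130 and was singled out after its values were seen, reached 121 CPM in R2a against 148 CPM in R2b.

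**Figure D3:**
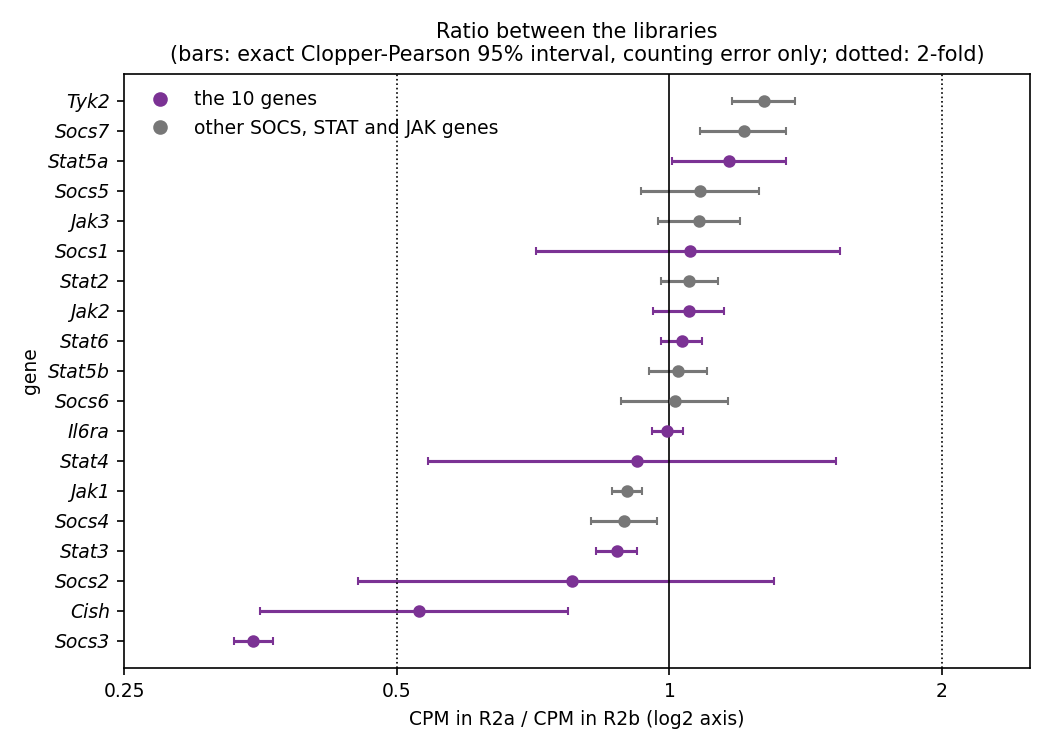
Fold (CPM in R2a over CPM in R2b, log2 axis) of the 10 genes and of 9 other SOCS, STAT and JAK genes, with exact Clopper-Pearson 95% intervals of the counting error and dotted lines at 2-fold. Socs3 lies beyond the lower 2-fold line with its whole interval (0.330 to 0.364), the interval of Cish (0.353 to 0.773) crosses that line, and the remaining points lie between 0.781 and 1.27.

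The order of the 10 genes by TPM was Socs3, Stat6, Il6ra, Stat3, Jak2, Stat5a and Socs1 from the top in both libraries. Below these, Stat4 stood above Cish in R2a and below it in R2b. In R2a the levels of this pair, 1.30 TPM (0.830 to 1.93) and 1.14 TPM (0.794 to 1.59), do not differ beyond counting error. In R2b the point values were 1.38 TPM (1.02 to 1.81) and 2.11 TPM (1.76 to 2.51), whose intervals overlap slightly. Socs2 was lowest, at 0.482 TPM in R2a and 0.603 TPM in R2b. Among all genes compared, Socs3 stood at percentile 96.8 of TPM in R2a and 98.9 in R2b, and Socs2 at percentile 2.36 and 3.15.

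The genes with levels most like those of Socs3 were Ets2, Arrdc3 and Gas7, by distance in log2 of CPM plus 0.5 over the 2 libraries. Ets2, an ETS family transcription factor, was nearest, with 141 CPM in R2a against 344 CPM in R2b. Arrdc3, an arrestin-like adaptor, stood at 203 CPM and 336 CPM, and Gas7 at 144 CPM and 285 CPM. The log2 ratios of Arrdc3 and Gas7, -0.72 and -0.98, were smaller in size than that of Socs3, and neither gene was called. With 2 libraries such likeness is only a likeness of 2 levels.

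Receptor chains upstream of these genes were close to equal. Of 31 listed chains 28 were compared, 1 was called higher and 0 lower, and the median log2 ratio was -0.01, or 0.06 with total-count scaling. The called gene was Il2ra, which encodes CD25, the high-affinity chain for interleukin-2, at 14.7 CPM in R2a against 1.80 CPM in R2b. Lepr, the leptin receptor gene, had 4 and 26 reads and a log2 ratio of -0.96, and it was called lower with an added value of 0.1 CPM, with a 1.5-fold rule and with protein-coding genes alone. Among uncalled chains with at least 5 CPM in either library, the largest log2 ratios were 0.55 for Il2rg, the common gamma chain, 0.42 for Csf2ra, the GM-CSF receptor alpha chain, -0.36 for Epor, the erythropoietin receptor, and -0.31 for Ifngr2, a chain of the interferon-gamma receptor. None of these 4 passed the rule.

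Cytokine genes were mostly at very few reads. Of 25 ligands 9 were compared, 2 were called higher and 2 lower in R2a, and 7 had 0 reads in both libraries. Osm, which encodes the interleukin-6 family cytokine oncostatin M and is a STAT5 target, had 216 reads in R2a and 971 in R2b, or 17.8 CPM and 41.7 CPM. Osm was thus lower in R2a together with Socs3, by 2.34 times (2.02 to 2.73). Clcf1, another cytokine of the interleukin-6 family, went the other way, with 170 reads in R2a and 105 in R2b and a fold of 3.10 (2.42 to 3.998). Il12b, a subunit of interleukins 12 and 23, was higher with 26 and 16 reads, and Il7 was lower with 1 and 24 reads, a ratio of 0.0799 (0.00194 to 0.490). Ctf1, a further cytokine of the interleukin-6 family, had 13 and 7 reads and a log2 ratio of 0.97, just short of the rule, with a fold of 3.56 (1.32 to 10.5). It was called higher under 5 of the alternatives. The other ligands compared without a call had log2 ratios of 0.43 for Il27, 0.12 for Il15, -0.06 for Ebi3 and -0.19 for Il10. Interleukin-6 itself was hardly seen, with 0 reads of Il6 in R2a, which allows up to 0.247 CPM, and 3 in R2b. Il10 had 13 reads in R2a and 30 in R2b.

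Other negative regulators, among them the phosphatases that remove phosphate from kinases and STATs and the PIAS proteins that bind STATs, gave 0 calls of 15, with a median log2 ratio of 0.01. The largest ratios were 0.39 for Pias4, 0.38 for Ptprc, which encodes the phosphatase CD45, 0.32 for Ptpn6, which encodes SHP-1, and -0.21 for the adaptor Sh2b2. Socs3 was therefore the only inhibitor called among the 23 SOCS family genes and other regulators listed. Of all genes compared, 1.84% were called lower and 1.93% higher in R2a.

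Genes widely used as STAT3 targets leaned toward R2b. Of 16 compared, 15 had ratios below 0, 2 were called lower, Socs3 and Fos, and 0 were called higher. The median log2 ratio was -0.39, against -0.01 for all genes. Further members without a call were Junb at -0.94, Cebpb at -0.91, Bcl3 at -0.86 and Cebpd at -0.61, all transcriptional regulators. The 1 target with a ratio above 0 was Myc, at 0.41, and others such as Mcl1, at -0.06, lay near equality. Fos did not keep its call with total-count scaling, where 14 of the 16 lay below 0. Socs3, Fos and Junb are also among the 10 genes or the immediate-early list described next; of the other 13 targets 12 lay below 0, 0 were called, and the median was -0.31.

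Immediate-early genes, which cells switch on within minutes of a stimulus and which are known to be induced when tissue is digested to single cells, also had ratios toward R2b. All 20 listed genes had ratios below 0, from -1.54 for Fosl2 to -0.27 for Nr4a1, with a median log2 ratio of -0.79. Of these, 5 were called lower, namely Fosl2, Fosb, Egr2, Klf4 and Fos, and 0 were called higher. With total-count scaling all 20 stayed below 0 and 4 were called. Their summed level was 7470 CPM in R2a and 12746 CPM in R2b. Socs3, at a log2 ratio of -1.52, lay inside the range of this list, with 1 of its 20 genes lower. The kidneys were digested with collagenase and DNase before sorting, and the part of this list in the Socs3 difference was not tested.

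STAT5 targets also leaned toward R2b, apart from Il2ra and Socs1, the latter near equality at a log2 ratio of 0.07. Of 12 compared, 10 had ratios below 0, 2 were called lower, Socs3 and Osm, and 1 higher, Il2ra, with a median log2 ratio of -0.28. Socs3, Bcl6 and Pim1 are also counted among the STAT3 targets. Of the 8 targets that are not among the 10 genes 7 lay below 0, with a median of -0.27. Cish stands in this list with its log2 ratio of -0.82, beside -0.46 for the repressor Bcl6, -0.36 for the kinase Pim1 and -0.27 for the cyclin Ccnd2. Among STAT6 targets, 9 of 16 were over the CPM minimum, 2 were called lower and 1 higher, and the median was -0.52, which was -0.27 over 15 genes without the minimum and -0.30 over 11 genes when protein-coding genes alone were scaled. The lower genes were the lectin Clec10a, at 8.49 CPM in R2a against 28.3 CPM in R2b, and Egr2, also an immediate-early gene, at 12.6 CPM against 31.1 CPM. Ccl22, a chemokine for regulatory T cells, had 25 reads in R2a and 0 in R2b. Its R2a level was 16-fold above a floor of 3 reads, and the lower bound of its fold was 12.1. The mannose receptor Mrc1 and the lectin Mgl2, a close paralog of Clec10a with which it can share reads, had log2 ratios of -0.94 and -0.75 without a call. Pparg, a lipid-sensing nuclear receptor, had 0.60 and Tfec -0.52. The classical interleukin-4 responsive genes Arg1 and Retnla were under the minimum, with 11 and 15 reads of Arg1 in R2a and R2b and 0 reads of Retnla in both.

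**Figure D4:**
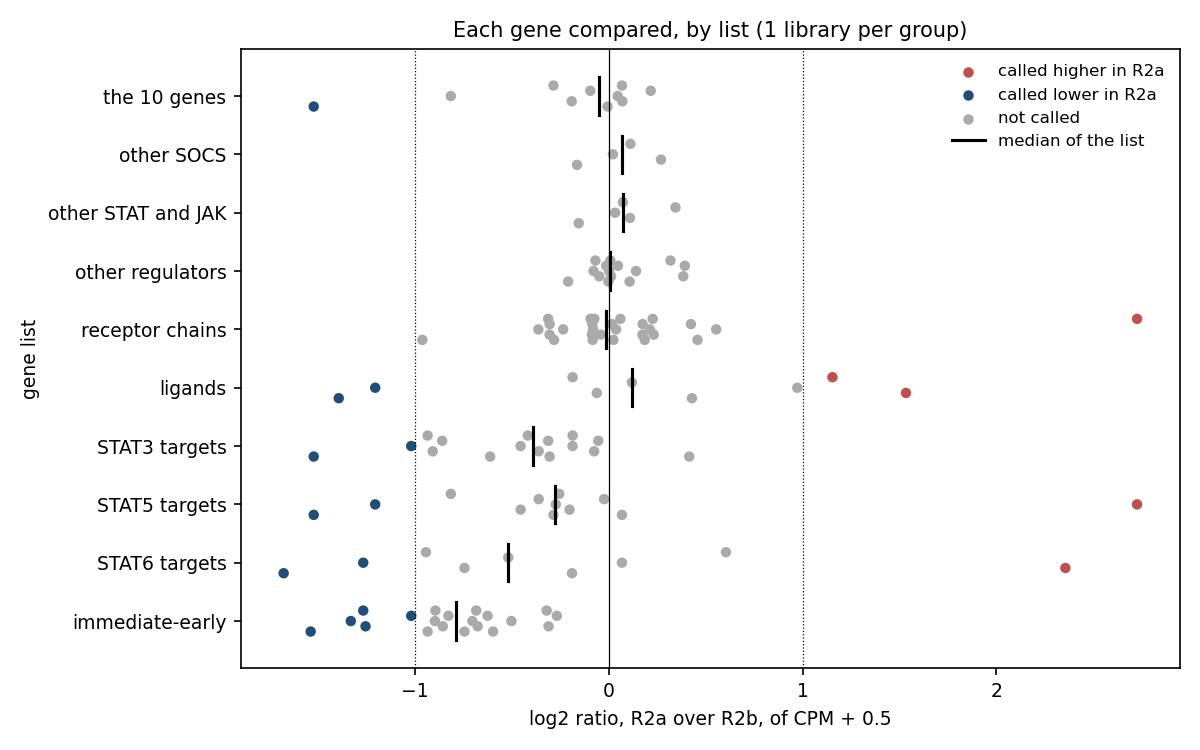
Log2 ratio of CPM plus 0.5, R2a over R2b (horizontal), of every gene compared in each list (vertical), coloured by call, with the list median as a black bar and dotted lines at 2-fold. The medians of the 10 genes (-0.05) and of receptor chains (-0.01) sit near 0, and those of STAT3 targets (-0.39) and immediate-early genes (-0.79) lie to the left.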

How the data were processed

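The deposited table holds unnormalized gene counts. Per the submitters' processing notes and the labels' protocols, the authors called bases with bcl2fastq 2.18.0.12, aligned paired 75-base reads from a library made after ribosomal RNA reduction with STAR 2.5.3 to GRCm38 and counted with HTSeq 0.9.1. Which annotation release, strand option and count mode they used is not stated. Gene rows hold 47.9% of the R2a reads and 50.3% of the R2b reads in the table. The 5 summary rows of the counter stayed out of every total. Symbols, positions and merged exon lengths came from GENCODE M21 (GRCm38), to which 48435 of 48795 identifiers matched without their version. Counts were scaled with TMM in edgeR 4.0.16 (R 4.3.3). Fold intervals are exact Clopper-Pearson 95% intervals on the split of reads (scipy 1.17.1). Reads carry no molecular identifiers and PCR copies are not independent molecules, so intervals and the floor of 3 reads cover counting error only, and calls compare these libraries, not the populations. The calling was tested on simulated data that held counting error only, so that test does not cover the spread between animals or libraries.

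The 10 genes and the lists were chosen with earlier results of these data known. Named were the 10 genes, other SOCS, STAT and JAK genes, every called gene of a pathway list and up to 4 more of each with the largest log2 ratio at 5 CPM or more. Other genes named, such as markers and ligands at few reads, were picked after their values were seen. Some results that this rule names are not reported here. Alternatives were other scalings (total count, upper quartile, DESeq2 1.42.0), added values, CPM minimums and size rules, a thinned R2b library and protein-coding genes alone.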

Additional observations from a re-analysis of the deposited data

Results flagged for a closer look

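The table also counts reads that entered no gene comparison, in both libraries far above a floor of 3 reads. Those on no annotated exon were 41.2% of the table's reads in R2a and 38.9% in R2b. Those on more than 1 gene were 2.42% in R2a and 2.51% in R2b, and those with several alignments 8.5% and 8.33%. Groups of 1 library allowed no search for samples that stand apart.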

How the results depend on the processing

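No paired analysis was possible because each group holds 1 library, and no library could be left out. Socs3 stayed the one gene of the 10 called lower, with 0 called higher, under the scalings, added values, CPM minimums, thinning and protein-coding restriction tried. A 4-fold rule called 0 of the 10 lower, and a 1.5-fold rule called 2. Over all genes, 301 higher and 287 lower became 493 and 462 with an added value of 0.1 CPM and 82 and 78 with one of 2 CPM, since it shrinks the ratios of weakly expressed genes. Raising the CPM minimum to 5, which leaves fewer genes, gave 92 and 97, the 4-fold rule 41 and 16, and the 1.5-fold rule 869 and 903. Of 70 alternative log2 ratios of the 10 genes, 66 lay inside the main counting interval, and 4, for Socs3, Stat3, Stat6 and Il6ra with total-count scaling, lay outside, with Socs3 at -1.45. Leaving the 10 genes and immediate-early genes out of the target lists, chosen after seeing the data, gave medians of -0.31 for STAT3, -0.27 for STAT5 and -0.52 for STAT6. Of the ligand calls, Il12b and Il7 were lost with an added value of 2 CPM, with a CPM minimum of 5 and with R2b thinned, and Ccl22 was lost with that minimum. Ctf1 was gained with total-count scaling, an added value of 0.1 CPM, R2b thinned, protein-coding genes alone and a 1.5-fold rule. Depth limits Socs1, Socs2, Cish and Stat4, which had 22 to 44 reads each in R2a.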
